A study of Mus musculus with 6 samples.

Results

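Mitochondrial ribosomal proteins are the protein parts of the ribosome that works inside mitochondria. In the table of mouse hearts, with libraries from a high-fat diet (HFD) and from normal chow (NC), they were taken as all protein-coding genes with a symbol of Mrpl or Mrps followed by a number. The rule found 78 of 23808 listed genes, and all 78 had a mean of at least 1 FPKM (fragments mapped to a gene, divided by its length and by the size of the library), so none was lost to the filter on low values. Processed pseudogenes with such symbols, 4 in all, were left out.

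The study sequenced mRNA libraries from hearts of female mice of WT genotype. The HFD group of 3 libraries came from mice fed HFD from 4 to 12 weeks of age, and the NC group of 3 libraries came from mice fed normal chow over the same weeks. No allele or other agent is named for either group, and neither strain nor fat content of the diet was given in the sources used here. Labels number the libraries 1 to 3 in each diet and do not say that each came from its own animal, so every error below measures the spread between libraries, which may be technical.

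The mitochondrial ribosome translates the few messages encoded by mitochondrial DNA, all of which are for subunits of the respiratory chain and ATP synthase. Its rRNAs are transcribed inside the organelle, whereas all its proteins are encoded in the nucleus, made in the cytosol and imported. Some of them descend from proteins of the bacterial ribosome and others were added in the mitochondrial lineage. The heart is rich in mitochondria, and in humans defects in several of these genes, MRPL3, MRPL44 and MRPS22 among them, cause cardiomyopathy.

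Across the 78 genes, the data show small differences that mostly had the same sign, and no gene that passed the test. In all, 71 members (91.0%) had a lower mean log2 level in HFD hearts than in NC hearts and 7 had a higher one, beside 53.1% lower among all 11456 genes tested. The median log2 difference, HFD minus NC, was −0.22 over the members and −0.02 over all genes tested, with members between −0.55 for Mrpl19 and 0.12 for Mrpl37. In FPKM, the mean in HFD hearts was 86.1% of that in NC hearts at the median member, with 21 members under 80%, 50 between 80 and 100% and 7 over 100%. No member passed an adjusted p of 0.05 in limma (smallest Benjamini-Hochberg adjusted p 0.9998), where the background was 0% of all genes tested. At an unadjusted p under 0.05 in limma there were 4 of 78 members, Mrpl19, Mrpl4, Mrpl34 and Mrpl21, all lower in HFD hearts. The background was 3.62% of genes in either direction, 2.3% in the lower one and 1.32% in the higher one.

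The promoters of 6 members are printed to show the sequence around their starts. They are first Mrpl34, Mrpl21, Mrpl27 and Mrpl52, the members with an ETS match among the 8 lower ones with the smallest p. Mrpl19 and Mrpl4, also among the 8, had no RefSeq promoter to search. Mrpl2 and Mrps15, the rest of the 8, held no ETS, NRF1 or YY1 match. Then come the members with the smallest p among those with an NRF1 match (Mrpl9) and with a YY1 match (Mrps18a). ETS factors such as GABP, together with NRF1 and YY1, are transcription factors known to act on nuclear genes for mitochondrial proteins. Each line runs 5′ to 3′ on the gene's strand, from 150 bases before to 30 bases after the start in RefSeq (GRCm38.p6), and capitals mark the motif, which may lie on either strand. All 6 genes lie on the plus strand. The printed stretches lie at chr8:71464776-71464955 for Mrpl34, chr19:3282892-3283071 for Mrpl21, chr11:94653641-94653820 for Mrpl27, chr14:54426759-54426938 for Mrpl52, chr3:94443186-94443365 for Mrpl9 and chr17:46110854-46111033 for Mrps18a. The capitals mark CCGGAAG or its reverse complement (ETS) in the first 4, the NRF1 motif in Mrpl9, and CCGGAAG followed by AAGATGGC (YY1) in Mrps18a.
Mrpl34: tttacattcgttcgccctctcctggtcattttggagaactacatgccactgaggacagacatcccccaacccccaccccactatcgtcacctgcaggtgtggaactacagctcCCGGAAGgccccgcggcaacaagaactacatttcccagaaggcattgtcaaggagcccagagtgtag
Mrpl21: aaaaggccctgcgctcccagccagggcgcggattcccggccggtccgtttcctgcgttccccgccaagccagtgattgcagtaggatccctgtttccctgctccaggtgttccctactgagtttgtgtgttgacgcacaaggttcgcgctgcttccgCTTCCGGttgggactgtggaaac
Mrpl27: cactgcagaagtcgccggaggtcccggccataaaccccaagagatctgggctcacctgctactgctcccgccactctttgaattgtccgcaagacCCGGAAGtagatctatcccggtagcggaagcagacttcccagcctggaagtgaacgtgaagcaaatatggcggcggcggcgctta
Mrpl52: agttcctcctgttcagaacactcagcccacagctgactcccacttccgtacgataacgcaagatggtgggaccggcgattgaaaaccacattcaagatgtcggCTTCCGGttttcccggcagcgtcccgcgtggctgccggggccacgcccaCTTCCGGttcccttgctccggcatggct
Mrpl9: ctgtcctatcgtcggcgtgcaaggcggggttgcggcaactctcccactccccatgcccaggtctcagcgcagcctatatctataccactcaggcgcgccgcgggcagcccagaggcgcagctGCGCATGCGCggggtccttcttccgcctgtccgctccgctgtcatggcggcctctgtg
Mrps18a: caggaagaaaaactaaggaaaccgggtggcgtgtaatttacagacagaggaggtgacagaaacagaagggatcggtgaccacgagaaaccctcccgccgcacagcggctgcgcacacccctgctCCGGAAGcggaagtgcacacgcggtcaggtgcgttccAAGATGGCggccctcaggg

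Over the full promoter windows of 300 bases, from 250 before to 50 after the start, 69 of the 78 members matched the RefSeq table with 75 promoters. Searched on both strands, CCGGAAG stood in 26 of 75 member promoters (34.7%), in 17.7% of the promoters of tested genes and in 8.86% of all promoters. The NRF1 motif stood in 13 member promoters (17.3%), against 10.1% of the promoters of tested genes and 4.603% of all. AAGATGGC stood in 12 member promoters (16%), against 4.52% and 2.75%. The other motifs searched were about as common in members as in tested genes or less common: CACGTG (E-box) in 9.33% against 9.97%, CCAAT in 40% against 37.1%, TATAAA in 6.67% against 7.20%, and GGGCGG (GC box) in 52% against 63.3%. Members with and without a motif gave like counts by diet, a comparison that was not tested. All 13 members with an NRF1 match were lower in HFD hearts (median log2 difference −0.21), and so were 49 of 56 without one (−0.19), while 23 of 26 with an ETS match (−0.19) and 39 of 43 without one (−0.20) were lower.

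The levels of the members spread widely around a median of 35.6 FPKM, a scale that allows for gene length, the highest mean being 59.5 times the lowest. Over the 6 libraries, 4 members exceeded 100 FPKM, 68 lay between 10 and 100 and 6 lay below 10. At the top stood Mrpl42, a large-subunit protein with no bacterial counterpart, with 209, 165 and 203 FPKM in HFD hearts, against 230, 255 and 215 FPKM in NC hearts. Its 3 HFD values were all below its 3 NC values (log2 difference −0.28 ± 0.20, SE). Mrpl30, the counterpart of bacterial uL30, had 153, 161 and 140 FPKM in HFD hearts, against 168, 195 and 177 FPKM in NC hearts, again without overlap (−0.25 ± 0.19). Mrps21, the counterpart of bacterial bS21, had 157, 226 and 157 FPKM in HFD hearts, against 216, 194 and 186 FPKM in NC hearts. There HFD 2 was the highest of all 6 libraries, so the diets overlapped (−0.16 ± 0.21). Mrpl33, the counterpart of bL33, averaged 133 ± 9.28 FPKM in HFD hearts and 146 ± 29.2 FPKM in NC hearts (SD, n = 3 each), and its difference (−0.11 ± 0.21) turned positive under 2 other scalings, at 0.03 with quantile normalization and 0.02 with each library brought to the same sum.

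At the other end of the range stood Mrpl19, Mrpl57, Mrps2 and Mrpl1. Mrpl57, which has no bacterial counterpart, averaged 5.36 ± 0.564 FPKM in HFD hearts and 6.06 ± 0.664 FPKM in NC hearts (SD, n = 3 each). Mrps2, the counterpart of uS2, averaged 6.09 ± 2.51 FPKM in HFD hearts and 6.59 ± 1.177 FPKM in NC hearts. Mrpl1, the counterpart of the protein of the mobile L1 stalk, averaged 5.75 ± 1.53 FPKM in HFD hearts and 7.57 ± 1.56 FPKM in NC hearts. In these 3 genes the libraries of the diets overlapped.

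Among the 51 genes of the large subunit, which holds the peptidyl transferase centre, 46 were lower in HFD hearts, with a median log2 difference of −0.25. Mrpl19 (ENSMUSG00000030045, chr6:81957851-81965958 in GRCm38) had 2.79, 2.50 and 2.83 FPKM in HFD hearts, against 4.12, 4.82 and 4.39 FPKM in NC hearts. On log2(FPKM + 1), where the added 1 narrows the spread of low genes most, it had the smallest within-diet SD of all members (0.083). Its diets were well apart (−0.55 ± 0.21, limma unadjusted p = 0.0214). It was also the least abundant member, and 36% of its exon bases overlap Gcfc2 on the other strand, a gene at 0.940 FPKM; whether the authors' counting used strand is not known from the labels. Leaving out any 1 library kept its difference between −0.60 and −0.51.

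Mrpl4 (ENSMUSG00000003299, chr9:21002738-21008839) encodes the counterpart of uL4, which in bacteria lines the peptide exit tunnel. It had 38.96, 39.5 and 56.4 FPKM in HFD hearts, against 67.0, 63.8 and 64.3 FPKM in NC hearts. HFD 3 lay closest to the NC libraries but below all of them (−0.54 ± 0.21, limma unadjusted p = 0.0240), and without HFD 3 the difference was −0.71.

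Mrpl34 (ENSMUSG00000034880, chr8:71464959-71465747), a short basic protein whose bacterial counterpart binds rRNA, had 66.1, 70.0 and 66.9 FPKM in HFD hearts, against 84.3, 91.4 and 98.6 FPKM in NC hearts. The HFD libraries lay close together and all below NC (−0.43 ± 0.19, limma unadjusted p = 0.0430). Mrpl21 (ENSMUSG00000024829, chr19:3282901-3292837), the counterpart of bL21, had 27.1, 23.9 and 30.6 FPKM in HFD hearts, against 36.4, 53.9 and 31.2 FPKM in NC hearts. NC 2 was far above the rest, and HFD 3 and NC 3 nearly met (−0.53 ± 0.24, limma unadjusted p = 0.0459). Without NC 2 its difference was −0.31.

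The next members by p were also free of overlap between the diets. Mrpl27, whose bacterial counterpart reaches into the peptidyl transferase centre, had 39.2, 43.8 and 33.1 FPKM in HFD hearts, against 54.0, 54.6 and 48.7 FPKM in NC hearts (−0.43 ± 0.20). Mrpl52, which has no bacterial counterpart, had 83.7, 85.6 and 71.4 FPKM in HFD hearts, against 93.7, 109 and 112 FPKM in NC hearts (−0.38 ± 0.20). Mrpl2, the counterpart of the rRNA-binding protein uL2, had 37.4, 41.7 and 48.3 FPKM in HFD hearts, against 54.1, 55.6 and 56.4 FPKM in NC hearts (−0.38 ± 0.20). In Mrpl2 the NC libraries were tighter than the HFD libraries, and HFD 3 was again the HFD library nearest to NC.

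**Figure D1:**
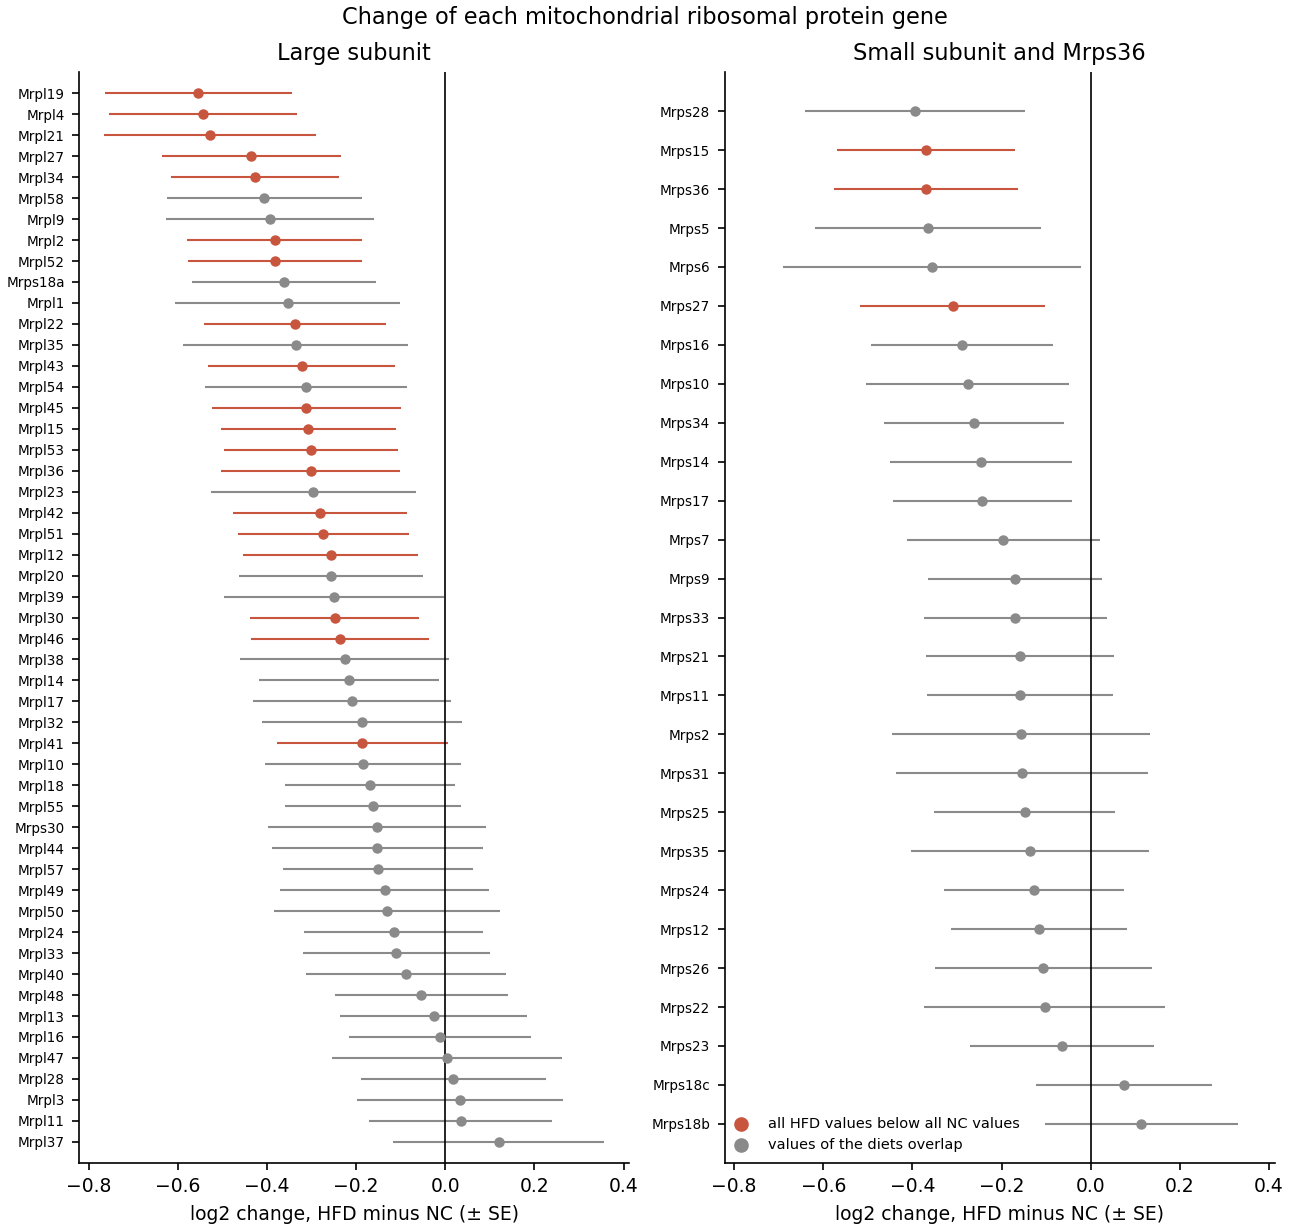
Log2 difference, HFD minus NC, of each of the 78 genes (points) with its limma standard error (bars), large subunit on the left and small subunit with Mrps36 on the right. Points lie left of 0 for 71 genes, red points mark the 22 genes whose 3 HFD values were all below their 3 NC values, and none passed an adjusted p of 0.05.

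Other large-subunit proteins with known roles lay closer to 0. Mrpl12, which forms the stalk that recruits translation factors and is also known to bind the mitochondrial RNA polymerase, had 75.4, 96.8 and 87.8 FPKM in HFD hearts, against 101, 97.7 and 111 FPKM in NC hearts. HFD 2 came within 1 FPKM of NC 2, although the diets did not overlap (−0.26 ± 0.20). Mrpl44, which is needed for assembly of the large subunit, averaged 22.3 ± 4.95 FPKM in HFD hearts and 24.8 ± 4.55 FPKM in NC hearts (SD, n = 3 each; −0.15 ± 0.24). Mrps18a and Mrps30 carry small-subunit symbols, but their proteins sit in the large subunit. Mrps18a averaged 41.7 ± 6.64 FPKM in HFD hearts and 53.6 ± 5.45 FPKM in NC hearts, with HFD 2 above NC 3 (−0.36 ± 0.21). Mrps30 averaged 15.5 ± 3.57 FPKM in HFD hearts and 17.3 ± 3.47 FPKM in NC hearts (−0.15 ± 0.24).

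Among the 26 genes of the small subunit, which reads the message, 24 were lower in HFD hearts, with a median log2 difference of −0.16. Mrps15 (ENSMUSG00000028861, chr4:126046925-126055532), the counterpart of an rRNA-binding protein of the bacterial small subunit, had 41.6, 49.5 and 54.8 FPKM in HFD hearts, against 67.2, 59.5 and 61.7 FPKM in NC hearts. Its diets did not overlap (−0.37 ± 0.20). Mrps12, the counterpart of the decoding-centre protein uS12, had 38.8, 47.6 and 37.8 FPKM in HFD hearts, against 44.5, 43.6 and 46.3 FPKM in NC hearts. HFD 2 was the highest library, and the difference of −0.12 ± 0.20 turned positive with equal library sums (0.01) and with a trend on exon length removed (0.08). Mrps7, the counterpart of uS7 in the head of the subunit, averaged 29.99 ± 5.78 FPKM in HFD hearts and 34.2 ± 3.21 FPKM in NC hearts (SD, n = 3 each; −0.20 ± 0.22). Mrps22, which has no bacterial counterpart, averaged 8.08 ± 2.36 FPKM in HFD hearts and 8.80 ± 2.54 FPKM in NC hearts (−0.10 ± 0.27).

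Mrps36 bears the name of a small-subunit protein, but its product is now known as a subunit of the 2-oxoglutarate dehydrogenase complex of the citric acid cycle. It had 82.2, 67.3 and 89.4 FPKM in HFD hearts, against 97.8, 119 and 92.3 FPKM in NC hearts. The diets did not overlap, HFD 3 and NC 3 lying nearest to each other (−0.37 ± 0.21).

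The 7 members with a higher mean in HFD hearts differed by less than their standard errors in every case. Many lower members did so too, among them Mrpl33, Mrps21, Mrps12, Mrps7, Mrps22, Mrpl44 and Mrps30. Mrps18b, a small-subunit relative of Mrps18a, averaged 29.2 ± 5.60 FPKM in HFD hearts and 26.6 ± 2.63 FPKM in NC hearts (SD, n = 3 each; log2 difference 0.11 ± 0.22). Mrps18c, the other small-subunit relative, averaged 39.5 ± 3.30 FPKM in HFD hearts and 37.5 ± 3.89 FPKM in NC hearts (0.07 ± 0.20). Mrpl37, which has no bacterial counterpart, had 20.3, 26.8 and 31.2 FPKM in HFD hearts, against 25.3, 27.9 and 18.6 FPKM in NC hearts (0.12 ± 0.24). Its lowest library was NC 3 and its highest HFD 3, with the others between them.

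Mrpl3, whose counterpart uL3 reaches the peptidyl transferase centre, averaged 34.8 ± 10.03 FPKM in HFD hearts and 33.2 ± 2.99 FPKM in NC hearts, and HFD 3 with 46.4 FPKM was the highest library. Mrpl11, at the base of the stalk, averaged 9.52 ± 0.324 FPKM in HFD hearts and 9.30 ± 1.01 FPKM in NC hearts. Mrpl28, the counterpart of bL28, had a log2 difference of 0.02 ± 0.21, and Mrpl47, the counterpart of uL29, had one of 0.003 ± 0.26. Of the 7, the sign held whichever library was left out in Mrps18c alone.

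Counted by separation rather than by sign, 22 of 78 members (28.2%) had all 3 HFD values below all 3 NC values, against 4.88% of all genes tested. No member had all HFD values above all NC values, against 3.25% of genes. Of the 22 members, 19 belonged to the large subunit, 2 to the small subunit (Mrps15 and Mrps27), and the other was Mrps36. Whether the subunits differ was not tested. This count depended on the scaling between libraries: it was 11 with median-of-ratios scaling (5.48% of genes), 9 with quantile normalization (5.08%), 6 with each library brought to the same sum (2.66%) and 8 with that sum taken without mitochondrially encoded genes (3.29%). The count of lower members was 70 with median-of-ratios scaling (beside 51.2% of all genes), 67 with quantile normalization (48.1%), 60 with equal sums (34.9%) and 67 with equal sums without mitochondrially encoded genes (40.3%). Set against the median of all genes in the same scaling, 70, 67, 69 and 69 members lay below it, in the same order, and 70 did in the FPKM as deposited.

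By origin, 39 of 44 members with a direct bacterial counterpart were lower in HFD hearts (median log2 difference −0.24), and so were 28 of 30 members without one (−0.16). The other 4 members were in neither class. The difference between the diets was larger than a member's own within-diet SD in 44 of 78 members. The within-diet SD of log2(FPKM + 1) was 0.19 at the median, 0.083 in Mrpl19 and 0.084 in Mrpl48 at the tight end, and 0.59 in Mrps6 at the wide end. Of the 71 lower members, 56 stayed lower whichever library was left out. Neither this count nor the 44 has a share over all genes tested beside it, so neither can be called particular to the members.

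By library, the median member stood at 31.6, 34.1 and 34.4 FPKM in HFD hearts, against 39.6, 39.4 and 36.1 FPKM in NC hearts. The diets did not overlap in this median, with NC 3 the nearest to the HFD libraries. The summed FPKM of the 78 genes was 3137, 3482 and 3411 in HFD hearts, against 3962, 4101 and 3722 in NC hearts. As a share of all FPKM in a library, however, the members took 0.544, 0.506 and 0.482% in HFD hearts, against 0.536, 0.590 and 0.518% in NC hearts, and these overlapped. Of the 78 members, 59 had their highest value in an NC library (29 of them in NC 2) and 71 had their lowest value in an HFD library (33 of them in HFD 1). The other 7 were lowest in NC 3. Such counts were not made over all genes, so they cannot be called particular to the members. HFD 1 also had the lowest summed FPKM over all genes (576334).

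**Figure D2:**
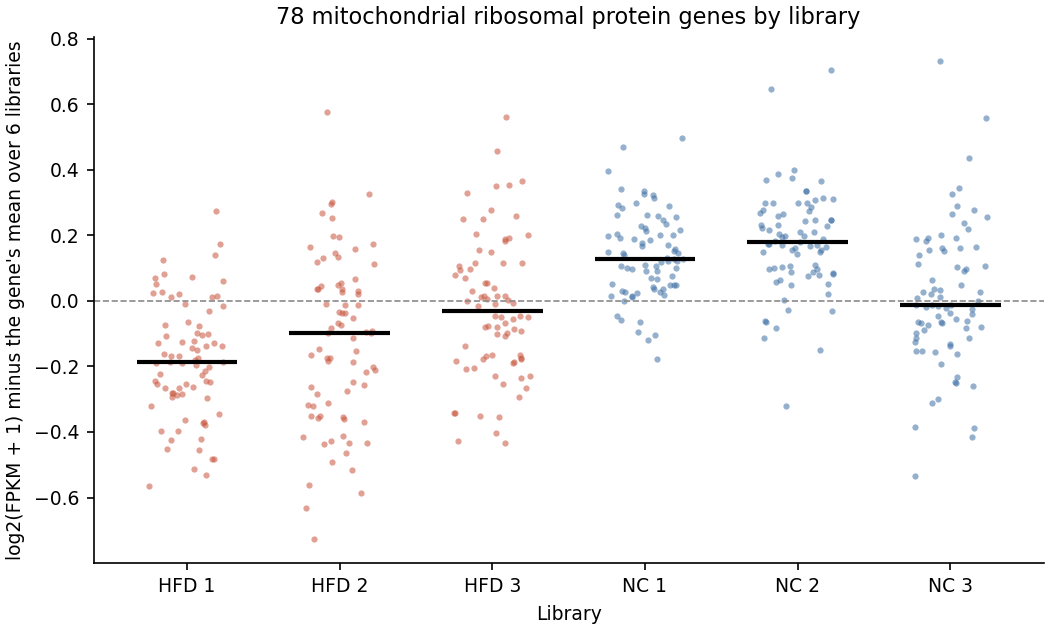
Log2(FPKM + 1) of each of the 78 genes in each library, minus the gene's mean over the 6 libraries (points), with the median per library (bars). The medians of the 3 HFD libraries lie below those of the 3 NC libraries, NC 3 lies close to HFD 3, and 29 genes have their highest value in NC 2.

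The files give no read counts, so the depth behind these values is unknown. Summed FPKM lay between 576334 and 708120 in the HFD libraries and between 694956 and 739406 in the NC libraries. In HFD 1, 5 genes that exceeded 1000 FPKM in the other libraries were listed at 0, and none of them was a member. Without HFD 1, 69 members were lower and the median log2 difference was −0.18. The summed FPKM of 8 cardiomyocyte markers, all of them present in every library, was 21544 to 23595 in HFD hearts and 24152 to 32151 in NC hearts, without overlap, and 6 of the 8 were lower. Myl2 held the largest part of these sums and itself overlapped, with 8410 to 11155 FPKM in HFD hearts and 9273 to 15202 in NC hearts. Only 2 of the 8, Tnni3 and Tnnt2, had no overlap, and Ryr2 and Ttn were higher in HFD hearts. The sum of 5 macrophage markers was 64.3 to 95.9 in HFD hearts and 99.2 to 131 in NC hearts, with 5 of 5 lower. The sum of 5 atrial markers ranged widely within both diets, from 428 to 7032 in HFD hearts and from 344 to 13770 in NC hearts, with 4 of 5 lower. Among the other lists, 5 of 6 fibroblast markers were lower (median log2 difference −0.43; sums 242 to 488 in HFD hearts and 282 to 519 in NC hearts). Of the smooth muscle and pericyte markers, 4 of 5 were lower (−0.44; 163 to 220 in HFD hearts and 217 to 287 in NC hearts). The endothelial markers lay the other way, with 0 of 5 lower (0.18; 787 to 1533 in HFD hearts and 546 to 1074 in NC hearts), as did the erythroid markers, with 0 of 5 lower (0.08; 1241 to 13371 in HFD hearts and 2025 to 8294 in NC hearts). Adipocyte markers were lower in 3 of 3 tested (0.934 to 49.5 in HFD hearts and 3.31 to 57.4 in NC hearts) and skeletal muscle markers in 1 of 2 tested (37.5 to 146 in HFD hearts and 23.9 to 138 in NC hearts). No marker of these lists was at 0 in all libraries. The part of these cell markers in the members' difference was not tested, and in bulk heart tissue fewer cells of a type and less RNA per cell cannot be told apart.

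The annotated exon length of the gene, with the exons of all its transcripts merged, moved with the difference across all genes. Members are short, with a median of 2394 annotated exon bases, against 4442 over all tested protein-coding genes. Among other tested protein-coding genes with up to 2000 exon bases, 79.1% of 1414 were lower in HFD hearts (median log2 difference −0.17), and in members of that length 29 of 31 were lower (−0.24). From 2000 to 4000 bases, 23 of 25 members were lower (−0.25), against 61.6% of the other genes (−0.06). Above 4000 and up to 8000 bases, 15 of 18 members were lower (−0.18), against 43.8% of the other genes (0.03), and above 8000 bases 4 of 4 members were lower (−0.21), against 35.9% (0.07). With a smooth trend on exon length taken out of every library, 63 of 78 members were lower, their median log2 difference was −0.14 beside 0.00 over all genes, and 6 had all HFD values below all NC values (4.57% of genes). The members' medians lay below those of other genes in all 4 length classes, by least in the shortest class.

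**Figure D3:**
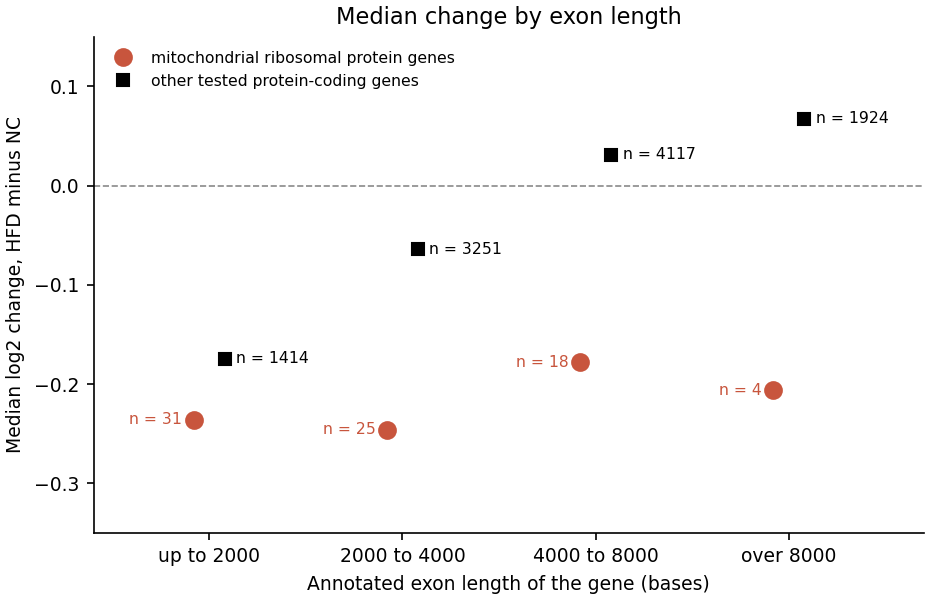
Median log2 difference, HFD minus NC, by annotated exon length, for the 78 mitochondrial ribosomal protein genes (red circles) and the other tested protein-coding genes (black squares), with the number of genes beside each point. In the other genes the median runs from −0.17 in the shortest class to 0.07 in the longest, and in the members it lies between −0.25 and −0.18 in every class.

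Level moved with the difference too. Among members at 30 to 100 FPKM, 38 of 41 were lower in HFD hearts (median −0.26), against 66.7% of other genes at that level (−0.09). At 10 to 30 FPKM, 24 of 27 members were lower (−0.18), against 55.2% of other genes (−0.03). The part of level in the members' difference was not tested.

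Related gene groups, 2 in number, give a scale for these counts. The genes for the proteins of the cytosolic ribosome, which translates nuclear messages, were lower in 53 of 80 tested cases, with a median log2 difference of −0.04, and 1 had no overlap between the diets. The genes with complex I symbols, whose products share the respiratory chain with products of mitochondrial translation, were lower in 33 of 36 cases. Their median was −0.17, and 2 had no overlap. Among all genes tested, 4.88% had all HFD values below all NC values. Both counts without overlap were made in the FPKM as deposited only. Both groups are shorter than the members, with a median of 1775.5 exon bases for the cytosolic ribosome and 1532 for complex I, against 2394. No gene of either group passed an adjusted p of 0.05 in limma, and no test of the difference between the groups was made.

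**Figure D4:**
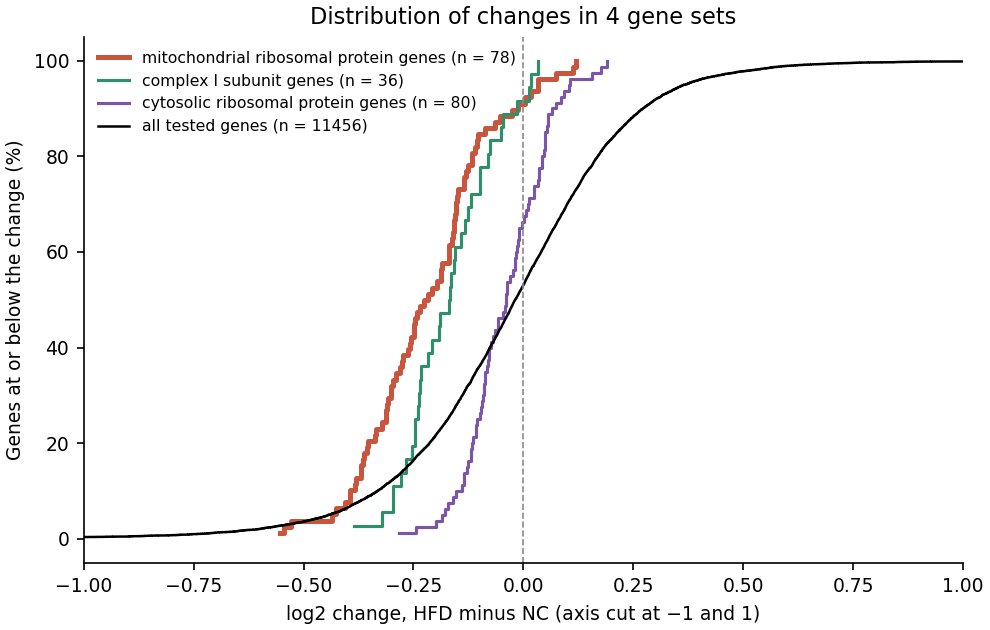
Share of genes (y axis, percent) at or below a given log2 difference, HFD minus NC (x axis, cut at −1 and 1), for the 78 mitochondrial ribosomal protein genes, 36 complex I genes, 80 cytosolic ribosomal protein genes and all 11456 genes tested. At 0 the curve of the mitochondrial ribosomal protein genes stands at 91.0% and that of all genes at 53.1%.

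The other parts of mitochondrial translation were read from lists of their genes. Of 5 mitoribosomal proteins with other names, 4 were lower in HFD hearts (median log2 difference −0.20). Chchd1 averaged 73.2 ± 7.45 FPKM in HFD hearts and 91.0 ± 13.9 FPKM in NC hearts (SD, n = 3 each), and Aurkaip1 averaged 62.3 ± 6.48 FPKM in HFD hearts and 72.2 ± 6.77 FPKM in NC hearts. Dap3, a GTP-binding protein of the small subunit, was the one with a higher mean, at 53.8 ± 3.65 FPKM in HFD hearts and 50.3 ± 1.12 FPKM in NC hearts.

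Of 26 tested genes for assembly of the mitoribosome and modification of its rRNA, 18 were lower (−0.17). In 3 of the 26, all HFD values were below all NC values, against 4.88% of all genes tested. Mrm3, a methyltransferase of the large rRNA, had 6.33, 5.27 and 5.43 FPKM in HFD hearts, against 8.13, 11.5 and 8.13 FPKM in NC hearts. Its log2 difference of −0.61 ± 0.22 (limma unadjusted p = 0.0188) was beyond that of any member, and it did not pass the adjustment. Mettl17, which is needed for assembly of the small subunit, averaged 6.38 ± 0.871 FPKM in HFD hearts and 9.36 ± 2.14 FPKM in NC hearts, with overlap between NC 1 and HFD 3.

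Of 15 listed translation factors and partner proteins such as Oxa1l, Lrpprc and Slirp, 10 were lower (−0.10). Tufm, the elongation factor that brings aminoacyl-tRNA to the ribosome, averaged 71.8 ± 8.47 FPKM in HFD hearts and 85.1 ± 5.97 FPKM in NC hearts. Oxa1l, which inserts new chains into the inner membrane, averaged 17.9 ± 4.99 FPKM in HFD hearts and 20.7 ± 2.30 FPKM in NC hearts. Of 19 tested genes for aminoacyl-tRNA synthetases of mitochondria, a list that also holds the amidotransferase subunits Qrsl1, Gatb and Gatc, 13 were lower (−0.09). Those with the smallest p were Cars2, with 12.5 ± 3.52 FPKM in HFD hearts and 15.2 ± 1.36 FPKM in NC hearts, and Ears2, with 1.97 ± 0.439 FPKM in HFD hearts and 2.42 ± 0.320 FPKM in NC hearts. The libraries of the diets overlapped in all 4 of these genes.

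The rRNAs that these proteins bind were listed for both subunits, although libraries made from mRNA hold rRNA only in part. The small-subunit rRNA, mt-Rnr1, had 3004, 3502 and 4308 FPKM in HFD hearts, against 3176, 3316 and 3628 FPKM in NC hearts. The large-subunit rRNA, mt-Rnr2, had 3733, 3740 and 4565 FPKM in HFD hearts, against 3477, 3607 and 3535 FPKM in NC hearts. The values of mt-Rnr1 overlapped between the diets (log2 difference 0.08 ± 0.21), and those of mt-Rnr2 were all higher in HFD hearts (0.17 ± 0.19), so neither was lower in the way most protein genes were.

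Some members share sequence or exons with other annotated genes, which the authors' counting could have split. Mrpl23 had 67.8, 110 and 70.5 FPKM in HFD hearts, against 112, 96.4 and 90.9 FPKM in NC hearts, and its pseudogene Mrpl23-ps1 had 8.85, 14.1 and 7.12 FPKM in HFD hearts, against 14.7, 11.3 and 17.4 FPKM in NC hearts. The other pseudogenes stayed under 1 FPKM in every library. Exons of 33 members overlap those of another gene, among them Mrpl53 (88.0% of its exon bases, by Gm42688), Mrps25 (69.8%, by Nr2c2) and Mrps34 (63.4%, by Mapk8ip3). Of the 45 members without any such overlap, 42 were lower, with a median log2 difference of −0.25.

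**Figure D5:**
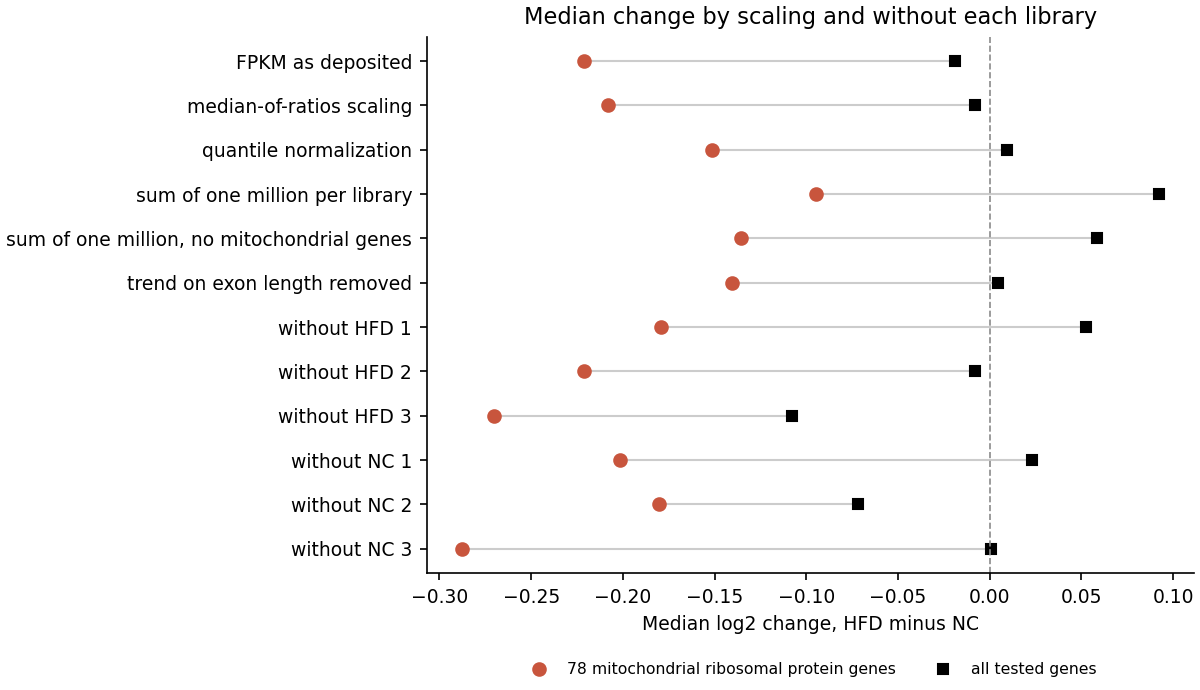
Median log2 difference, HFD minus NC, of the 78 mitochondrial ribosomal protein genes (red circles) and of all genes tested (black squares) for the FPKM as deposited, 5 other ways to scale or correct the libraries and each library left out. The members' median lies below 0 and below that of all genes in each, and the gap between them runs from −0.29 without NC 3 to −0.11 without NC 2.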

How the data were processed

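Messenger RNA of hearts was sequenced from 3 HFD and 3 NC libraries, with total RNA taken by Trizol and libraries made with a VAHTS mRNA-seq kit, per the labels' protocols. The authors deposited 1 table of FPKM per gene and library. Per the submitters' processing notes, the build was mm10 and the tools were DESeq2 1.18.1 with R 3.4.1, HISAT2 2.2.1 with HTSeq 0.13.5, and Trimmomatic 0.38 with FastQC 0.11.9, with no roles stated. The FPKM program, the sequencing depth and any use of strand were not given in the sources used here. No read counts could be recovered from the low values, so no count model was used.

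Gene IDs were matched to symbols, biotypes and exons in the mouse GENCODE annotation of GRCm38 (23718 of 23808 matched). The two-sided test was limma 3.58.1 (R 4.3.3) on log2(FPKM + 1), with trended eBayes variances, for genes whose mean reached 1 FPKM, with Benjamini-Hochberg adjustment over all 11456. The pseudocount understates differences of low genes. The steps were checked on simulated data. No test was made over the members as a set, since they share libraries. Named with values were the 8 lower members with the smallest p, all 7 higher members, the 4 highest and 4 lowest by level, a panel with known roles or unusual placement, and 2 per list of other genes; Dap3, Mrpl23, Mrpl9, Mrpl48, Mrps6, Mrps27 and overlapping genes were singled out after their values were seen. The members and lists were chosen with earlier results of these data known. Alternatives were other pseudocounts, filters, scalings and variance models, weights per library, a replicate block and each library left out. A library sum without mitochondrially encoded genes and the removal of a loess trend on exon length (span 0.5) were added after seeing the data. Promoters came from RefSeq.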

Additional observations from a re-analysis of the deposited data

How the results depend on the processing

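No member passed an adjusted p of 0.05 in limma under any alternative run, and the members' median stayed below 0 in all of them. Over all genes tested, the replicate block gave 73 genes past the threshold, against 0 without it, and none of the 73 was a member; leaving out 1 library gave 0 to 1 (the 1 without NC 2). The labels do not say that the replicate numbers pair the libraries, and 3 libraries per diet cannot settle it. Same-numbered libraries deviated together with correlations of 0.19, 0.09 and 0.28 over genes. The other pairs ran from −0.36 (HFD 1 with NC 3) to 0.25 (HFD 1 with NC 2). The members' median log2 difference was −0.15 with quantile normalization, −0.094 with equal library sums (where the median of all genes moved to 0.09, so that the members lay −0.19 from it), −0.14 with equal sums without mitochondrially encoded genes and −0.14 with the exon-length trend removed; it ran from −0.29 to −0.18 with 1 library left out. Members without overlap numbered 11 with median-of-ratios scaling, 9 with quantile normalization and 6 with equal sums. They numbered 8 with equal sums without mitochondrially encoded genes and 6 with the length trend removed. The cause of these lower counts was not tested. With 1 library left out they numbered 23 to 41 (36 without HFD 2 and 41 without NC 3), where 5.74 to 16.8% of genes had no overlap. Those counts could not fall below the 22 found with all libraries. A gene without overlap stays so when a library is dropped. Among named genes, the sign turned with library weights in Mrpl11 (−0.0060), Mrpl3 (−0.022), Mrpl28 (−0.023) and Mrpl47 (−0.028); with quantile normalization in Mrpl33 (0.026); with equal sums in Mrpl33 (0.020), Mrps12 (0.012) and Mrps22 (0.014); and with the length trend removed in Mrpl3 (−0.0054), Mrps21 (0.053), Mrps12 (0.077) and Mrpl44 (7.63e-05). Leaving out 1 library gave ranges across 0 of −0.0081 to 0.26 for Mrps18b, −0.045 to 0.28 for Mrpl37, −0.034 to 0.11 for Mrpl11, −0.19 to 0.14 for Mrpl3, −0.077 to 0.17 for Mrpl28, −0.19 to 0.21 for Mrpl47, −0.27 to 0.025 for Mrpl33, −0.38 to 0.17 for Mrps2, −0.31 to 0.026 for Mrpl44, −0.34 to 0.041 for Mrps22 and −0.32 to 0.040 for Mrps30. The files give no depth, so no counting error could be set beside these values. Members at an unadjusted p under 0.05 in limma, 4 in the main run, also varied. They numbered 2 with median-of-ratios scaling, quantile normalization and equal sums, where 574, 579 and 610 of 11456 genes passed. They numbered 0 without NC 2 (508 genes), 8 without HFD 2 (506 genes) and 8 without HFD 3 (677 genes).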

Other observations

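Members often start close to another gene. A protein-coding gene on the opposite strand starts within 1000 bases of 33 of the 78 members (42.3%), against 16.5% of 10784 tested protein-coding genes. Some neighbours also serve mitochondria: Sars2, the seryl-tRNA synthetase, starts 172 bases from Mrps12; Ptcd2, a mitochondrial RNA-processing factor, starts 81 bases from Mrps27; Twnk, the mitochondrial DNA helicase, starts 779 bases from Mrpl43; and the complex I genes Ndufs6 and Ndufb5 start 29 and 615 bases from Mrpl36 and Mrpl47. Mrps11 and Mrpl46, both members, start 412 bases from each other. Of 25 tested neighbours 16 were lower in HFD hearts, with a median log2 difference of −0.06. Of the 33 members with such a neighbour 29 were lower (−0.19), and so were 42 of the 45 without one (−0.25). The neighbours were longer and at lower levels, with medians of 5030 exon bases and 4.70 FPKM. The members with a neighbour had medians of 2064 exon bases and 27.4 FPKM. The part of length and level here was not tested. Ptcd2 had 16.0, 15.04 and 17.4 FPKM in HFD hearts, against 21.8, 23.4 and 20.0 FPKM in NC hearts, without overlap (−0.40 ± 0.20, SE). Sars2 averaged 3.44 ± 1.498 FPKM in HFD hearts and 4.30 ± 1.55 FPKM in NC hearts (SD, n = 3 each), with overlap.

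Upstream of the ribosome, 9 of 17 genes for replication or transcription of mitochondrial DNA and processing of its RNA were lower in HFD hearts (median log2 difference −0.03). Tefm, the mitochondrial transcription elongation factor, had 8.47, 6.37 and 9.002 FPKM in HFD hearts, against 12.7, 11.6 and 9.59 FPKM in NC hearts, without overlap. Of 11 nuclear regulators of mitochondrial genes, 5 were lower (median 0.10). Myc averaged 1.28 ± 0.183 FPKM in HFD hearts and 2.14 ± 0.792 FPKM in NC hearts, and Ppargc1a, which encodes the coactivator PGC-1α, averaged 5.84 ± 2.57 FPKM in HFD hearts and 4.19 ± 0.457 FPKM in NC hearts. Both overlapped between the diets, and no gene of either list passed an adjusted p of 0.05 in limma.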
